A study of Mus musculus with 2 samples.

Results

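Among the YFP+ cells sorted from neonatal mouse spleen, 279 were late erythroid cells, rich in haemoglobin transcripts. They were chosen by a rule on measured values: a cell was a member if it had at least 300 detected genes, at most 5% of its UMIs (unique molecular identifiers, each standing for 1 captured RNA molecule) from mitochondrial genes, and at least 30% of all its UMIs in the adult haemoglobin genes Hba-a1, Hba-a2, Hbb-bs and Hbb-bt. Of 32658 cells deposited, 21820 passed the first 2 filters, and the 279 members were 95 of 8053 such cells in the WT library and 184 of 13767 in the KO library. Their haemoglobin content, and every difference from other cells that follows from it, was therefore set by the selection and is given as a description.

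The study profiled single cells of spleens from 7-day-old C57BL/6J mice by droplet-based 3′ RNA sequencing, with 1 library of WT cells and 1 of KO cells. KO mice carried floxed Zfp335, a zinc finger transcription factor gene, together with Foxp3-Cre (Zfp335 fl/fl Foxp3-Cre). Foxp3-Cre is a YFP-Cre cassette placed behind Foxp3, the master transcription factor gene of regulatory T cells (Tregs), and since the WT cells were also sorted on YFP they carried the cassette too. Red blood cells were lysed before the sort, which kept YFP+7AAD- cells, 7AAD being a dye that enters dead cells, and the labels name the sorted cells Tregs. The study's methods add CD4, a T cell surface protein, to the gate. How many mice were pooled per library was not given, and with 1 library per genotype no difference between WT and KO could be tested. The 95% intervals below cover counting error only. Levels are given as CPM, UMIs per 1000000 UMIs outside the 4 haemoglobin genes, since the rule fixes the share of those genes. Zfp335 stood at 8.27 CPM in WT and 0.900 CPM in KO T cells, whereas the members held 1 Zfp335 UMI in each library, too few to show its level there. No YFP or Cre transcript was among the 32285 features, so YFP could not be read in the members.

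Red cells are made in the spleen as well as in the bone marrow of newborn mice. As erythroblasts mature, they load their cytoplasm with haemoglobin, 2 alpha and 2 beta chains around haem, switch on the enzymes of haem synthesis, build a flexible membrane skeleton, leave the cell cycle and finally expel the nucleus and clear their organelles. In the mouse the alpha chains come from the neighbouring genes Hba-a1 and Hba-a2, and the beta chains of C57BL/6 mice from Hbb-bs and Hbb-bt. In GRCm38, the assembly on which the counts rest, Hba-a1 lay at chr11:32283511-32284465 and Hba-a2 at chr11:32296489-32297298 on the plus strand, and Hbb-bs at chr7:103826534-103828096 and Hbb-bt at chr7:103812524-103813996 on the minus strand.

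The copies of each pair are almost the same sequence, which bears on how their UMIs could be told apart. The last 60 coding bases, stop codon included, all within the last of 3 exons, are shown for each gene from the GENCODE transcripts, 5′ to 3′, with the base that differs within the pair in capitals.
Hba-a1: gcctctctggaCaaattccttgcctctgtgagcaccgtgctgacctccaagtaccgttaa
Hba-a2: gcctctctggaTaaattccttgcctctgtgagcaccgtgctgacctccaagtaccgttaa
Hbb-bs: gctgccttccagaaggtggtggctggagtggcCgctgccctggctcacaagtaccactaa
Hbb-bt: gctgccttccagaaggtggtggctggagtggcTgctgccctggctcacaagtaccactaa
These windows lie at chr11:32284332-32284391, chr11:32297149-32297208, chr7:103826665-103826724 and chr7:103812656-103812715. The base shown in capitals was the sole difference over the 429 coding bases of the alpha pair, and likewise over the 444 coding bases of the beta pair. Behind the stop codon, all 74 aligned bases of the 3′ untranslated regions were identical between Hba-a1 and Hba-a2, the annotated region of Hba-a2 being longer (90 bases), whereas 95 of 128 aligned bases were identical between Hbb-bs and Hbb-bt. The split between Hba-a1 and Hba-a2 is thus uncertain, while their sum, and the split of the beta genes, rest on more sequence.

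Promoters of the alpha genes were alike as well: 247 of 247 bases before their RefSeq starts were identical. The stretch before the first annotated exon is shown for Hba-a2 (chr11:32296242-32296488, plus strand) and for Alas2, the erythroid enzyme of the rate-limiting step of haem synthesis (chrX:150547167-150547374, plus strand), because haem and globin genes are high together in these cells. Both are RefSeq sequence of GRCm38.p6, and capitals mark GATAA or its reverse complement TTATC, the core bound by the GATA family of erythroid transcription factors.
Hba-a2: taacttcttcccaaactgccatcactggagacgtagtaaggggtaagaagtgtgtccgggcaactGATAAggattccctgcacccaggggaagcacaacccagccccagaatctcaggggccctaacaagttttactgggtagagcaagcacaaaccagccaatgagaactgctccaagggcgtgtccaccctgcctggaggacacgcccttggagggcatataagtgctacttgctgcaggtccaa
Alas2: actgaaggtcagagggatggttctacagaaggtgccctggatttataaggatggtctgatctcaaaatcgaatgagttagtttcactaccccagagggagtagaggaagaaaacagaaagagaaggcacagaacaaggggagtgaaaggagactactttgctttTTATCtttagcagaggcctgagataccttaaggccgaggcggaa
Over promoters of 300 bases, GATAA on either strand was found in 4 of 4 haemoglobin genes, in 4 of 11 promoters of haem synthesis genes, 6 of 18 of iron genes, 7 of 17 of red cell membrane genes, 9 of 20 of erythroid transcription factor genes, 4 of 19 of late maturation genes and 0 of 6 of redox genes. Over all 7 lists this was 35.8%, against 25.4% of all 32851 promoters. CCACACCC, the core bound by KLF factors, was found on either strand in 1 of the 4 haemoglobin genes and in 3.16% of the 95 promoters matched to 7 erythroid gene lists, which covered 66 of their 86 genes, against 3.56% of all promoters. These matches describe the windows and say nothing of binding.

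Members differed from the other sorted cells in depth as well as in content. Each library held between 64567991 and 65480052 UMIs in all, and 70 cell barcode sequences occurred in both libraries, 2 of them among the KO members. The median member held 4741 UMIs in WT and 3960.0 in KO, of which 1180.0 and 1093.5 lay outside haemoglobin, with 604 and 599 genes detected. Haemoglobin took a median of 67.0% of a member's UMIs in WT and 66.8% in KO, with maxima of 86.8% and 87.2%. In absolute terms a member held between 309 and 9140 haemoglobin UMIs in WT and between 278 and 21007 in KO. The members carried 73.6% of the haemoglobin UMIs of the kept WT cells and 69.4% of those of the kept KO cells, in 0.975% and 1.63% of the UMIs of the cells kept. The median mitochondrial share of all UMIs was 0.578% in WT and 0.650% in KO members, against 2.46% and 2.34% in T cells. Over UMIs outside haemoglobin the pooled mitochondrial share of members was 2.55% and 2.29%, near the 2.54% and 2.58% of early erythroid cells.

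**Figure D1:**
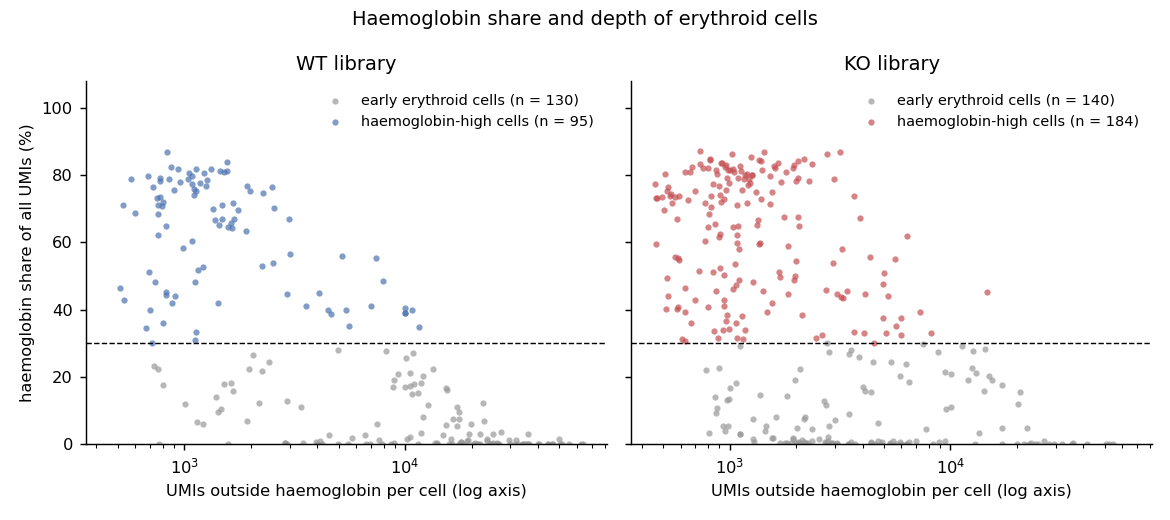
UMIs outside the 4 haemoglobin genes (x axis, log scale) against the haemoglobin share of all UMIs (y axis, percent) for each haemoglobin-high cell (coloured) and each early erythroid cell (grey) of the WT and KO libraries, with the 30% cut as a dashed line. Members run from 30.1% to 86.8% in WT and from 30.2% to 87.2% in KO without a gap at the cut.

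The cut falls within a continuous range. Of the members, 5 WT and 17 KO members lay between 30% and 35%, and 7 WT and 22 KO cells lay just outside, between 25% and 30%. The lowest members were at 30.1% in WT and 30.2% in KO, and the highest cells left out were at 28.1% and 30.0%. Cells just inside held a median of 1121 UMIs outside haemoglobin in WT and 1177 in KO, and those just outside 7108 and 1639.5. The WT cells around the cut were thus deeper outside than inside, while those of KO were more alike. Along the range, 29 WT and 59 KO members had 30 to 50% haemoglobin, 25 and 39 had 50 to 70%, and 41 and 86 had 70% or more, and these 3 ranges are used below.

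Erythroid marker genes bore out the erythroid part of the label. Alas2 was detected in 93 of 95 WT members and 176 of 184 KO members, with a median of 8 UMIs in both libraries, against 1.52% of WT and 3.85% of KO T cells, whose median depth was 5175 and 2811.5 UMIs. Of the 2 WT members without it, both lay between 30% and 35% haemoglobin, as did 3 of the 8 in KO. Slc4a1, the band 3 anion exchanger of the red cell membrane, was detected in 80.0% of WT and 79.3% of KO members and in 2.20% and 2.47% of T cells. Tmcc2, a transmembrane protein gene induced in late erythroblasts, was detected in 34.7% and 43.5% of members against 0.342% and 0.724% of T cells. At least 1 UMI of these 3 genes was present in 94 of 95 and 181 of 184 members. Early erythroid cells, defined below, held them too. Alas2 was detected in 47.7% of these in WT and 37.9% in KO, Slc4a1 in 49.2% and 39.3%, and Tmcc2 in 12.3% and 10.0%. Genes of the progenitor stage had few UMIs. Kit, the stem cell factor receptor gene, had 0 UMIs in WT and 2 in KO members, and Myb, a proliferation factor of progenitors, had 3 and 4. The 8 progenitor genes listed had 6 and 15 UMIs, or 0.00290% and 0.00477% of UMIs outside haemoglobin. They were scarce in early erythroid cells too, at 0.0177% and 0.0117%.

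The haemoglobin UMIs of the members had a similar make-up in both libraries. Hba-a1 made up 22.4% of them in WT and 22.5% in KO, Hba-a2 16.1% and 16.7%, Hbb-bs 48.8% and 47.8%, and Hbb-bt 12.8% and 13.0%. Alpha UMIs stood at 0.625 per beta UMI in WT and 0.646 in KO, and the median over members was 0.630 (quartiles 0.577 and 0.769) and 0.654 (0.573 and 0.731). The difference between the libraries was thus small beside the spread between cells. Hbb-bs held 79.2% (79.0 to 79.4%) of beta UMIs in WT members and 78.7% (78.5 to 78.8%) in KO members.

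Within the alpha pair the shares moved along the haemoglobin range. Hba-a1 held 76.8% (76.3 to 77.2%) of alpha UMIs in early erythroid cells of WT and 73.6% (73.1 to 74.1%) of KO, 66.1% and 63.6% in members with 30 to 50% haemoglobin, 56.0% and 58.1% at 50 to 70%, and 55.9% and 55.8% at 70% or more. Both libraries had the same order, with the 2 upper ranges close together, whereas Hbb-bs went from 74.7% of beta UMIs in WT and 77.7% in KO early cells to between 78.0% and 79.6% in all 3 ranges. T cells had a median haemoglobin share of 0.0375% in WT and 0.107% in KO, but up to 27.3% and 29.8%, near the cut. Their pooled haemoglobin UMIs (29576 and 170363) had an Hba-a1 share of 56.3% in WT and 56.5% in KO, next to that of the most haemoglobin-rich members. Whether counting of the near-identical alpha copies takes part in this shift was not tested.

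**Figure D2:**
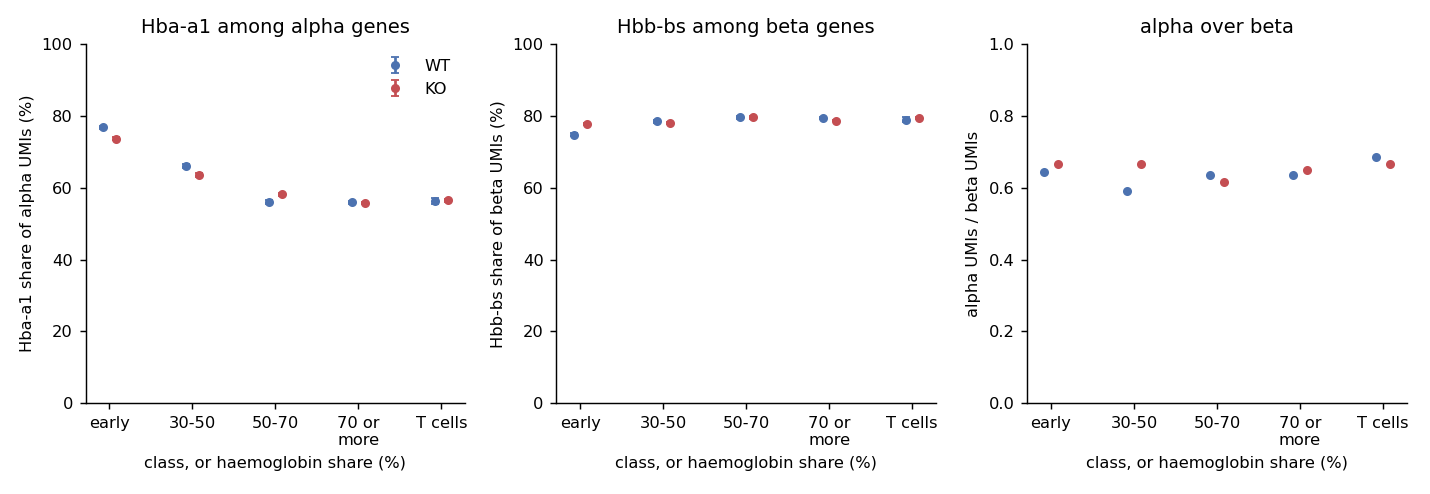
Share of Hba-a1 among alpha UMIs (left, percent), share of Hbb-bs among beta UMIs (middle, percent) and alpha UMIs per beta UMI (right) in early erythroid cells, in members by haemoglobin share and in T cells. Points are pooled UMIs of 1 library with exact binomial 95% intervals (left and middle). The Hba-a1 share goes from 76.8% in WT early cells to 55.9% in WT members with 70% haemoglobin or more, while the Hbb-bs share is 74.7% in WT early cells and between 78.0% and 79.6% in members.

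Other globins were rare. Hbq1b and Hbq1a, theta globin genes, had 40 and 8 UMIs in WT and 58 and 15 in KO members, or 193 and 38.7 CPM in WT and 185 and 47.7 CPM in KO. The embryonic genes Hbb-y, Hbb-bh1 and Hba-x had 0 UMIs in the members of both libraries, which allows up to 14.5 CPM in WT and 9.55 in KO (3 counts per library). Hbb-y stood at 4.07 and 26.8 CPM in early erythroid cells.

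Members were then set beside early erythroid cells, defined as cells under 30% haemoglobin with a UMI in at least 3 of 8 genes, among them Klf1, Gata1, Epor, Ermap, Rhag, Car1 and Blvrb (130 in WT and 140 in KO, with medians of 14957.5 and 4377.5 UMIs). These classes are ranges of one lineage rather than types: 33 WT and 69 KO members would also have met the early gene count. Because the rule split the cells on expression, and these 8 genes chose the early cells, the contrast carries no test. Of 2060 genes with at least 100 UMIs over both classes in each library, 212 (10.3%) were at least 2-fold higher in members in both libraries, and 209 (10.1%) were at least 2-fold lower in both.

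Bpgm and Rsad2 stood furthest above early cells. The 10 genes with the largest ratio by the smaller of both libraries included Bpgm, Rsad2, Tent5c, Tmcc2, Bcl2l1, Ube2o, Prxl2a, Alas2 and Xpo7. Bpgm, the enzyme that makes the haemoglobin ligand bisphosphoglycerate, stood at 2841 CPM in WT and 3424 in KO members against 32.1 and 55.3 in early cells, 88.4 and 61.9 times as high. Tmcc2 went from 8.60 and 32.9 to 1078 and 935, and Ube2o, a ubiquitin ligase that removes unused proteins during terminal maturation, from 17.6 and 39.8 to 913 and 878. Bcl2l1, which codes for the survival protein Bcl-xL, went from 6.79 and 21.6 to 439.7 and 519. Rsad2, best known as an interferon-induced antiviral gene, stood at 2261 and 2370.5 in members against 17.2 and 46.7 in early cells.

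The 10 genes furthest in the other direction were Gm15915, C1qtnf12, Nt5dc2, Stard10, Ifitm2, Nedd4, Mt2, Car1, Hspd1 and Mrpl2. Car1, a carbonic anhydrase of the early erythroid stage, stood at 87.0 and 95.5 CPM in WT and KO members against 569.7 and 501 in early cells. Hspd1, the mitochondrial chaperonin, stood at 121 and 115 against 787 and 642. Gm15915 had 0 UMIs in the members of either library and 105 and 95.1 CPM in early cells.

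**Figure D3:**
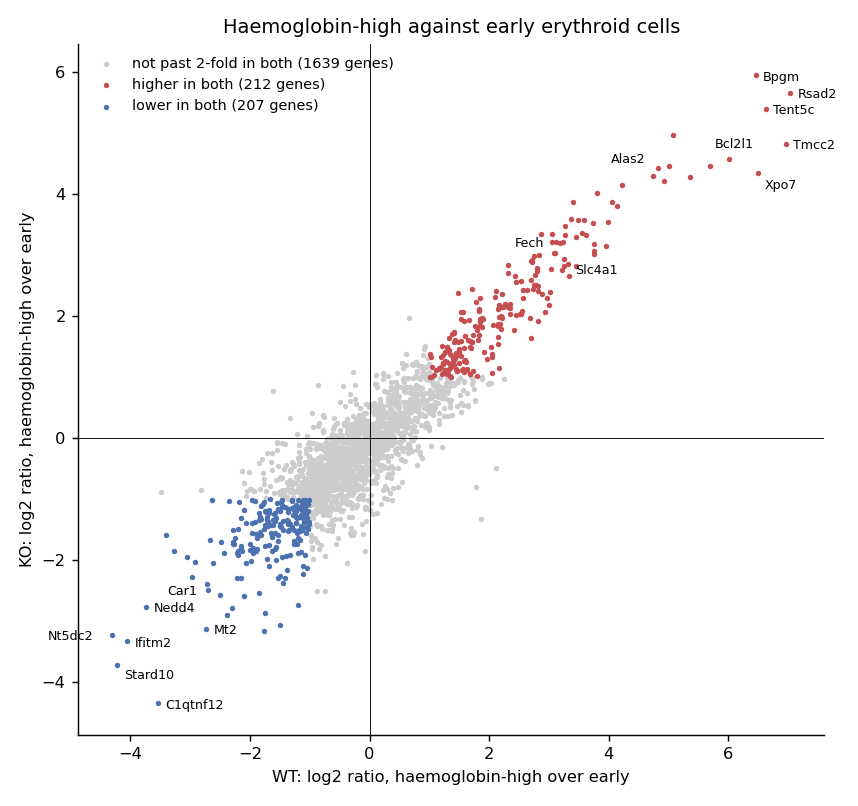
Log2 ratio of haemoglobin-high to early erythroid cells in WT (x axis) and in KO (y axis) for genes with at least 100 UMIs in each library. Red points are the 212 genes at least 2-fold higher in both libraries, blue points genes at least 2-fold lower in both (207 drawn of 209, as genes with 0 UMIs in the members of a library have no log ratio), and the named genes at the far ends include Bpgm, Rsad2 and Tmcc2 at the top right.

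By gene list, read against those 10.3% and 10.1%, members were higher for most genes of haem, membrane and maturation. Of late maturation and organelle clearance genes, 12 of 13 tested were higher in both libraries and 0 lower, the list summing to 1.47% of UMIs outside haemoglobin in WT and 1.67% in KO members against 0.199% and 0.220% in early cells. Among them Bnip3l, a receptor for mitochondrial clearance, stood at 1541 and 1874 CPM against 161 and 169, and Glrx5, a glutaredoxin of iron-sulphur cluster assembly, at 1957 and 1877 against 835 and 729.8. Of red cell membrane and skeleton genes, 14 of 19 were higher and 0 lower. Slc4a1 stood at 2503 and 2488 in members and 262 and 325 in early cells, and Epb41, protein 4.1 of the skeleton, at 1894 and 1549.6 against 71.1 and 78.7.

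Haem synthesis genes were higher in 6 of 10 tested. Alas2 led with 4450.3 CPM in WT and 6125 in KO members against 157 and 284 in early cells. Fech, the ferrochelatase that inserts iron (named after its values were seen), stood at 1252 and 1295 against 147 and 157. Alad, the enzyme after Alas2, at 2078 and 1880.5 against 1225 and 1293, did not pass 2-fold. Of iron uptake and storage genes 3 of 6 were higher, among them Slc25a37, mitoferrin of the mitochondrial membrane, at 1952 and 1441 against 125 and 163, and Tfrc, the transferrin receptor, at 1299.8 and 1066 against 465 and 359. Fth1 and Ftl1, the ferritin chains, were below 2-fold in at least 1 library, with 7040.3 and 5921 CPM for Fth1 against 5082 and 4911.

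Redox and carbonic anhydrase genes were higher in 4 of 7 and lower in 1, Car1. Gpx1, the glutathione peroxidase gene, reached 10509.7 and 13946 CPM in members against 1602 and 1877, and Prdx2, peroxiredoxin 2, reached 6663 and 6589.6 against 2508 and 2707. Car2, the major carbonic anhydrase of red cells, stood at 3982 and 3529 against 1539 and 1375. Of erythroid transcription factor genes, 2 of 9 were higher: Nfe2 at 324 and 302 against 63.4 and 65.7, and Sox6 at 411 and 315 against 63.4 and 101. Klf1, at 343 and 315 against 268 and 319, and Gata1 did not differ by 2-fold. From the erythropoietin signalling list, both genes tested were higher, Bcl2l1 and the kinase gene Pim1 (411 and 697 against 99.6 and 269).

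Of S phase genes 0 of 11 passed 2-fold in both libraries in either direction, and of mitosis genes 1 of 11, Ube2c, which drives the exit from mitosis, at 1464 and 1833 CPM against 413 and 568. Of cell cycle inhibitors 3 of 4 tested were higher, among them Cdkn2d at 280.3 and 442 against 62.9 and 102. Cytosolic ribosomal protein genes gave 0 higher and 5 lower of 78, a lower share of either than over all genes, and together they made up 18.4% of UMIs outside haemoglobin in WT and 19.6% in KO members against 29.8% and 29.7% in early cells. Of interferon-stimulated genes 2 of 5 tested were higher, Rsad2 and Isg15, a ubiquitin-like modifier, the latter at 2010.1 and 3013 against 48.9 and 155. Ifitm3 and Bst2 were among those not past 2-fold in both libraries. Of integrated stress response genes 1 of 4 was higher, Ddit3, and of p53 target genes 0 of 1, Bax.

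Members also differed among themselves along the range of haemoglobin share, a description on the measure the rule used. From 30 to 50% through 50 to 70% to 70% or more, Alas2 stood at 2299, 5207 and 8609 CPM in WT and at 2492, 5119 and 11881 in KO. Bpgm stood at 532, 3048 and 7891 in WT and 469, 2273 and 8319 in KO, and Bnip3l at 721, 1714 and 3238 in WT and 504, 1671 and 3931 in KO. All these genes thus had the same order in both libraries. Gpx1, at 6482, 10414 and 19759 in WT and 6324, 11172 and 26450.4 in KO, did too.

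Other haem genes ran the opposite way. Alad went from 3507 to 741 and 123 CPM in WT and from 3010.2 to 1581 and 485 in KO. Tmem14c, which carries a haem precursor across the inner mitochondrial membrane, went from 1974 to 212 and 102 in WT and from 1049 to 196 and 116 in KO. The haem synthesis list as a whole stood at 14155, 11641 and 15414 in WT and 12738, 13761 and 20258 in KO, so that its sum hid opposite orders of its genes. Tmcc2 and Slc4a1 were higher above 50% than below it, Tmcc2 at 289, 1714 and 2255 in WT and 235, 1746 and 1398 in KO, where the upper ranges changed order between the libraries.

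Cell cycle genes were concentrated at the lower end of the range. Mitosis genes summed to 6726, 3260 and 2193 CPM in WT and 8692, 5014 and 2009 in KO, and S phase genes to 3399, 698 and 717 in WT and 2686, 1024 and 612 in KO. Mki67, the proliferation marker, stood at 1794, 571 and 389 in WT and 2154, 1581 and 175 in KO. Gata1 stood at 180.3, 84.7 and 20.5 in WT and 221, 120.4 and 38.8 in KO, on few UMIs. Rsad2 was 793, 3789 and 4120 in WT and 822, 3207 and 4009 in KO, and Isg15 487, 2646 and 4858 in WT and 532, 2891 and 6581 in KO. Depth outside haemoglobin had medians of 1427, 1482 and 1090.0 UMIs in WT and 1281, 1085 and 1034 in KO.

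**Figure D4:**
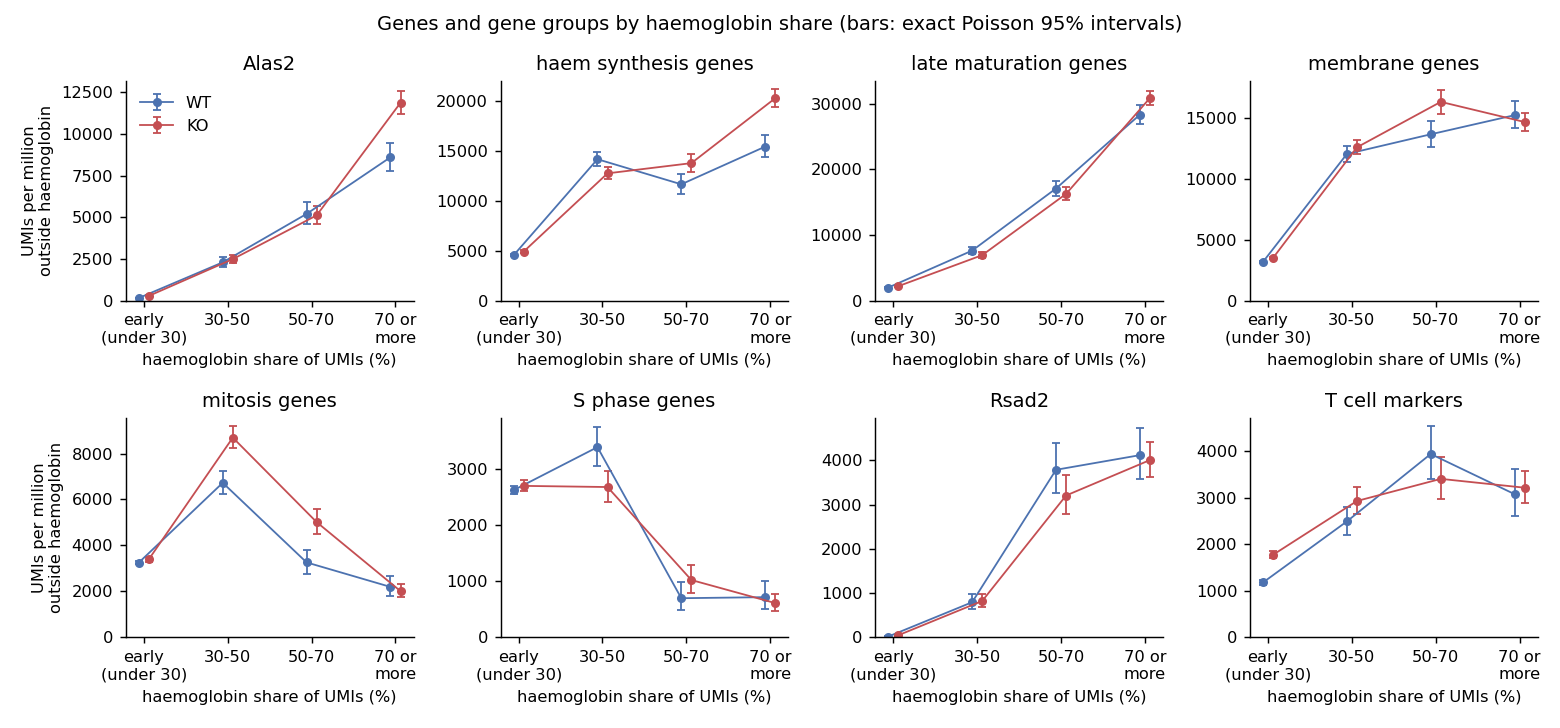
CPM outside haemoglobin (y axis) for Alas2, Rsad2 and 6 gene lists in early erythroid cells and in members with 30 to 50%, 50 to 70% and 70% or more haemoglobin (x axis), in the WT (blue) and KO (red) libraries. Points are pooled UMIs of 1 library and bars exact Poisson 95% intervals. Alas2 and late maturation genes are highest at the right of each panel, mitosis genes are highest at 30 to 50%, and T cell markers are no lower at the right than at 30 to 50%.

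After thinning every cell to 1000 UMIs, a UMI of Mki67 or Top2a was present in 32.3% (22.9 to 42.7%) of 93 WT members and 23.6% (17.6 to 30.5%) of 178 KO members, with 2 and 6 members too shallow to be thinned. Unthinned, the shares were 51.6% and 46.2%. Early erythroid cells stood at 60.3% and 65.9% after thinning, and T cells at 23.1% and 29.4%. Since haemoglobin fills most of a member's UMIs, the same 2 genes outside haemoglobin stood higher in members (1667 and 1998 CPM) than in early cells (1472 and 1383), and KO was above WT there but below it by the share. No order between classes or libraries was read from these values.

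Malat1, a long noncoding RNA kept in the nucleus, was looked at after its values were seen. It made up a median of 1.11% of UMIs outside haemoglobin in WT members (0.249% to 9.78%) and 1.27% in KO members (0.132% to 17.5%), and was detected in all 279. The median was 1.45%, 1.90% and 0.903% from the lowest to the highest range in WT, and 1.77%, 3.68% and 0.957% in KO. Under 2% lay 19 of 29, 14 of 25 and 36 of 41 WT members, and 32 of 59, 15 of 39 and 78 of 86 KO members. T cells had medians of 1.96% and 1.98%, and early erythroid cells 0.647% and 1.27%. Within the members, those with most haemoglobin thus had the lowest medians in both libraries, and those of the middle range the highest.

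RNA of other cell types was measured in the members. The 6 T cell markers (Cd3d, Cd3e, Cd3g, Trac, Trbc1 and Trbc2) made up 0.296% (0.273 to 0.320%) of UMIs outside haemoglobin in WT members and 0.312% (0.293 to 0.332%) in KO members, against 0.660% and 0.609% in T cells, 0.118% and 0.177% in early erythroid cells and 0.152% and 0.254% in neutrophil-type cells. These shares went with depth, which differed between the classes. Members up to the median depth outside haemoglobin stood at 0.387% in WT and 0.405% in KO, and deeper members at 0.273% and 0.284%. The median member held 4 T cell marker UMIs in both libraries, and 3 of 95 and 8 of 184 held none, whereas T cells held a median of 36 and 17. T cells were chosen by at least 3 such UMIs, a count that 66 of 95 WT and 130 of 184 KO members also reached. Foxp3 had 5 UMIs in WT and 9 in KO members, in 5.26% and 4.89% of cells, against 20.8% and 14.7% of T cells. Cd4 had 12 and 24 UMIs in the members. Cd3 genes took 35.6% (31.8 to 39.6%) of the T cell marker UMIs in WT members and 35.3% in WT T cells, and 35.5% (32.5 to 38.6%) and 34.2% in KO. The other genes were less alike. Trbc2 took 31.5% (27.9 to 35.4%) in WT members against 36.5% in WT T cells, and Trbc1 25.2% (21.8 to 28.8%) against 21.1%. Trac took 5.30% (3.98 to 6.89%) in KO members against 7.78% in KO T cells. For the remaining shares the T cell value lay within the interval of the members. From the lowest to the highest range of haemoglobin share these markers stood at 2488, 3937 and 3075 CPM in WT and 2927, 3403 and 3213 CPM in KO, so that the lowest range had the lowest level. At least 10 T cell marker UMIs were present in 9 WT and 19 KO members, up to 86 in 1 WT member. The part of free RNA or of T cells joined to a member in these values was not tested.

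Markers of further cell types were scarce. The 10 neutrophil markers summed to 0.0821% in WT and 0.0694% in KO members against 13.8% and 6.91% in neutrophil-type cells, with a median of 1 UMI per member. B cell markers had 22 and 21 UMIs, megakaryocyte and platelet markers 3 and 2, and mast cell markers 1 and 1. Macrophage markers had 60 UMIs in WT members, 39 of them in 1 cell, and 9 in KO members, with Adgre1 at 0 in both.

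The frequency of these cells was close in the libraries. Members made up 1.18% (0.955 to 1.44%) of kept cells in WT and 1.34% (1.15 to 1.54%) in KO, a difference of 0.157 percentage points (-0.159 to 0.454, KO minus WT), so that the interval included no difference as well as one of 0.454 points. Without the limit on mitochondrial UMIs the difference was 0.369 points (0.168 to 0.567), an interval that left out 0. Members then numbered 97 in WT and 188 in KO, whereas 6471 WT and 4364 KO cells exceeded the limit. It was thus mainly the total of cells that changed, and more so in WT. The sort, its purity and the lysis of red cells set how many haemoglobin-high cells reached the libraries, and neither difference could be told apart from them.

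Within the members, 764 genes had at least 100 UMIs over both libraries, and 12 of them differed at least 2-fold between KO and WT. Of these, 5 genes (0.654%) were higher in KO and 7 (0.916%) were lower. The counting intervals of all 12 ratios left out 1, which a 2-fold ratio on at least 100 UMIs nearly ensures. Without the members that held 10 or more T cell marker UMIs, 3 genes were higher (Dstn, H2afx and Xist) and 4 lower (AY036118, Gm42418, Lars2 and S100a10), and without the 1 WT member rich in macrophage markers 8 were higher, the former 5 among them, and 8 lower. Lat, Itgb7 and Tmem14c were likewise not past 2-fold once cells with the highest doublet scores were left out, among them 0 WT and 5 KO members. Across 3281 genes with at least 20 UMIs the median log2 ratio was -0.033. Alas2 had a ratio of 1.38 (1.27 to 1.49), Slc4a1 0.994 (0.888 to 1.11) and Tmcc2 0.868 (0.727 to 1.04), none of them past 2-fold.

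The genes higher in KO members were Lat, Dstn, Xist, H2afx and Itgb7. Lat, an adaptor of T cell receptor signalling, stood at 91.8 CPM in WT and 258 in KO members, a ratio of 2.81 (1.69 to 4.90). Its level in T cells was 311 and 459 (ratio 1.48), above that of the members, and Itgb7, an integrin chain of lymphocytes, stood at 121 and 242 in members (ratio 2.00, 1.26 to 3.28) and 334 and 344 in T cells. In early erythroid cells the ratios were 2.65 (2.10 to 3.35) for Lat and 1.61 (1.26 to 2.06) for Itgb7. Neutrophil-type cells had ratios of 2.66 and 2.11, so that neither rise was particular to the members. The summed T cell markers had a KO to WT ratio of 1.06 (0.953 to 1.17) in the members, and the part of T cell RNA in these ratios was not tested. Dstn, the actin-severing destrin, stood at 155 and 404 (ratio 2.61, 1.76 to 3.98), on 32 UMIs in 14 WT members and 127 UMIs in 48 KO members. H2afx, a histone variant gene, stood at 338 and 678 (ratio 2.00, 1.52 to 2.66). Xist, the RNA that silences an X chromosome in female cells, stood at 275 and 630.0 (ratio 2.29, 1.70 to 3.13) in members, with ratios of 2.18 in early erythroid cells and 2.59 in T cells. The share of female cells in each library was not given. The next genes in order, Tnfrsf18, H2afy, Cenpe, Gnb2 and Iscu, had ratios between 1.91 and 1.98.

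The genes lower in KO members were AY036118, S100a10, mt-Nd5, Lars2, Picalm, Gm42418 and Tmem14c. AY036118, at 1604 CPM in WT and 219.5 in KO members (ratio 0.137, 0.104 to 0.178), and Gm42418, at 34168 and 16288 (ratio 0.477, 0.460 to 0.494), overlap each other on opposite strands (chr17:39847113-39848035 and chr17:39846958-39848788) in a stretch that holds ribosomal RNA sequence, so that their counts are uncertain. Lars2, a mitochondrial leucyl-tRNA synthetase, had a ratio of 0.430 (0.342 to 0.539). In T cells the ratios of these 3 genes were 0.132, 0.504 and 0.408, and that of S100a10, an annexin partner, was 0.279 against 0.398 (0.295 to 0.535) in members. For mt-Nd5, a subunit of respiratory complex I encoded in mitochondria, the ratio was 0.400 (0.270 to 0.588), and for Picalm, a clathrin adaptor used in iron uptake by erythroblasts, 0.449 (0.298 to 0.673). Their T cell ratios were 0.685 and 0.772, and that of Tmem14c was 0.851, so that all 7 genes were lower in KO T cells too. Srgn, Ndufa4 and Gpcpd1 followed at 0.504 to 0.570.

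Tmem14c was the sole gene of the erythroid lists past 2-fold, at 1131 CPM in WT and 563 in KO members (ratio 0.498, 0.407 to 0.608). Its UMIs lay in 28 WT and 45 KO members, with 51 of the 234 WT UMIs in 1 cell. Within the ranges of haemoglobin share its ratio was 0.532 (0.429 to 0.657) at 30 to 50%, where most of its UMIs lay, 0.925 (0.375 to 2.36) at 50 to 70% and 1.14 (0.373 to 4.12) at 70% or more. Alas2 had ratios of 1.08 (0.921 to 1.28), 0.983 (0.832 to 1.16) and 1.38 (1.23 to 1.55) in the same ranges. Members with 30 to 50% haemoglobin gave 53.6% of the UMIs outside haemoglobin in WT and 46.1% in KO, and those with 70% or more gave 23.6% and 32.8%. Dstn had ratios of 1.53, 0.377 and 4.74 from the lowest to the highest range, on 4 and 8, 17 and 9, and 11 and 110 UMIs in WT and KO, so that its direction was not the same in all of them. Itgb7 had ratios of 4.08, 0.889 and 1.96 and Xist 3.26, 0.996 and 1.78, so that neither was higher in KO in the middle range. Lat (3.28, 3.13 and 1.96) and H2afx (2.47, 1.85 and 1.29) were above 1 in all 3. The ratio of AY036118 lay between 0.0874 and 0.157, and that of S100a10 between 0.364 and 0.400, in all 3 ranges, and Gm42418, Lars2, mt-Nd5 and Picalm were below 1 in each.

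**Figure D5:**
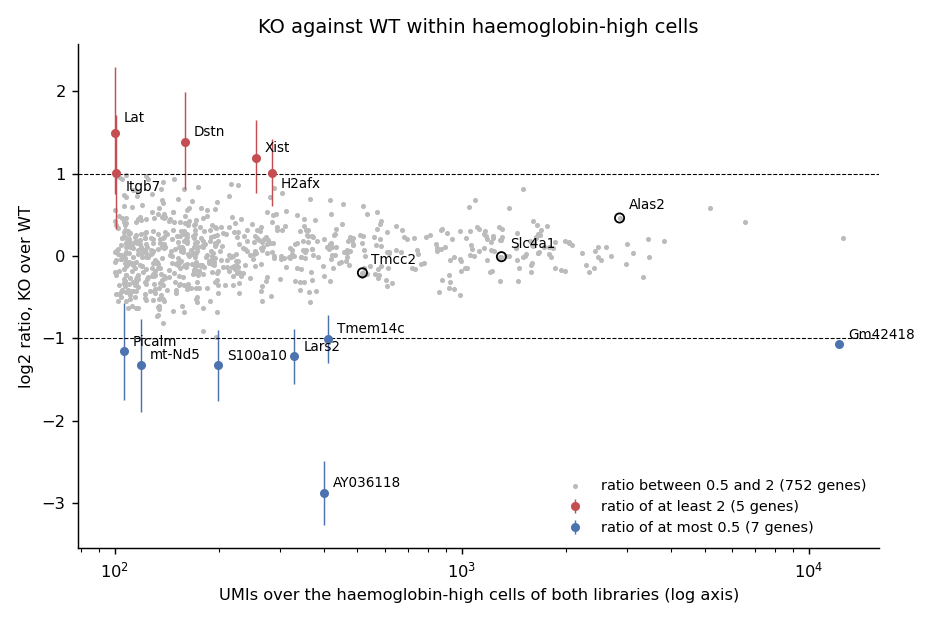
UMIs over the haemoglobin-high cells of both libraries (x axis, log scale) against the log2 ratio of KO to WT (y axis) for 764 genes. The 5 genes with a ratio of at least 2 are red and the 7 with a ratio of at most 0.5 blue, with exact 95% counting intervals as bars, dashed lines mark 2-fold, and the circled markers Alas2, Slc4a1 and Tmcc2 lie between them.

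By gene list, no list held a gene higher by 2-fold in KO members with the settings used above. Tmem14c was the single gene lower, against the 0.654% and 0.916% of all genes. Under alternatives some list genes were higher by 2-fold. Among these were Alad at a 50% cut, Ifitm3 and Tnfrsf18 at a 20% cut, and Cenpe without the highest doublet scores. Cenpe, Gypc, Pim1 and Tmod1 were so as means of single-cell values. The median log2 ratio was 0.038 for 11 haem synthesis genes, -0.12 for 7 iron genes, 0.13 for 20 membrane genes, -0.11 for 10 erythroid transcription factor genes, 0.13 for 15 late maturation genes and -0.016 for 7 redox genes, beside -0.033 for all genes. S phase genes had a median of -0.48 over 11 genes, 2 of them with a positive value, and mitosis genes one of 0.20 over 12, while 5 cell cycle inhibitors had -0.037. Ribosomal protein genes had a median of 0.10 over 81 genes, and 4 erythropoietin signalling genes, of which Pim1 was the most abundant, had 0.50. Among markers of other cells the medians were -0.17 for 6 T cell markers, 0.56 for 5 Treg markers and -0.34 for 5 neutrophil markers. Per 1000000 of all UMIs in place of those outside haemoglobin, the median of all genes moves by -0.23, since haemoglobin took 60.8% of the members' pooled UMIs in WT and 66.6% in KO.

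Interferon-stimulated genes had the highest median, 0.96 over 9 genes, each with a positive value, and 0.58 over those with at least 50 UMIs. The summed list had a KO to WT ratio of 1.32 (1.22 to 1.43). The most abundant of them, Rsad2, stood at 2261 CPM in WT and 2370.5 in KO members (ratio 1.05, 0.933 to 1.18), and Isg15 at 2010.1 and 3013 (ratio 1.50, 1.33 to 1.69). Among the other 7 were Ifitm3 with 21 and 63 UMIs and Irf7 with 19 and 50. The ratio of Isg15 was 1.09 (0.761 to 1.58) and 1.09 (0.868 to 1.38) in the lower ranges of haemoglobin share and 1.35 (1.17 to 1.58) at 70% or more, against 3.17 in early erythroid cells and 2.96 in T cells. Ube2l6, the conjugating enzyme for Isg15 and a gene of the late maturation list, had a ratio of 1.60 (1.40 to 1.83) in members and 2.19 in T cells. Of the integrated stress response list, 6 genes had a median of 0.41, with Atf5 at 193 and 309 CPM and Atf4 at 237 and 289.5 in WT and KO members. The 2 p53 targets with enough UMIs had a median of 0.23, with Bax, which promotes cell death, at 149.8 and 197 CPM.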

How the data were processed

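Single-cell libraries of sorted YFP+7AAD- splenocytes (1 WT, 1 KO) were deposited by the authors as UMI counts per gene and cell, made with Cell Ranger 5.0.1 on mm10 per the submitters' processing notes. The deposited counts were neither normalized nor filtered for mitochondrial share: 6471 WT and 4364 KO cells exceeded 5%, and 3 in each library had under 300 genes. The study removed doublets, whereas members here were not filtered for them.

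UMIs were summed over cells per class and library and expressed per 1000000 UMIs outside the 4 haemoglobin genes (CPM). Total depth was 64567991 (WT) and 65480052 (KO) UMIs, and 206951 and 314284 lay outside haemoglobin in members. Shares have Clopper-Pearson intervals, levels Poisson intervals, ratios conditional binomial intervals and the difference of shares a Newcombe interval, all at 95%. No test was possible between single libraries. Ratios needed 100 UMIs over both libraries, list medians 20, with 0.5 added to each sum. T cells had at least 3 T cell marker UMIs and neutrophil-type cells at least 4 of 8 granule genes, neither being erythroid. The ratio code was tested on simulated data. Named genes were the markers, Zfp335, the 10 highest and 10 lowest ratios of each contrast and the most abundant members of each list. Members and gene lists were chosen with earlier results of these data known. One listed gene, Ahsp, matched no feature and is given no value, and Fam132b was read as Erfe. Alternatives were other haemoglobin cuts, cell filters, doublet removal (Scrublet in scanpy 1.11.5), scales, UMI minima and thinning depths. Doublet removal left out a fixed share of kept cells with the highest Scrublet scores, 5% in WT (403 cells) and 8% in KO (1101 cells). The study's methods state 5% for KO and 8% for WT. Coordinates and coding sequences came from GENCODE M21 (GRCm38). Software was Python 3.11.15 with scipy 1.17.1 and pandas 2.3.3. Some genes of the lists are not reported here.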

Additional observations from a re-analysis of the deposited data

Results flagged for a closer look

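The filters removed 2 WT and 7 KO cells that met the haemoglobin cut of 30%. They were not used in any comparison above. All 9 held Alas2 UMIs. In WT both exceeded the mitochondrial limit, at 6.27% and 13.1%, and in KO 4 exceeded it and 3 had too few genes.

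Dstn was higher in KO than in WT members, with a ratio of 2.61, and lower in KO than in WT T cells, with a ratio of 0.643 (0.614 to 0.672). The difference between the classes was not tested, as each had 1 library per genotype.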

How the results depend on the processing

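Depth limits these values: the members hold 206951 and 314284 UMIs outside haemoglobin, genes under 100 UMIs gave no call, and with 1 library per genotype no replicate was left out and no difference was tested. No paired analysis was possible because each genotype had 1 library. Of 164 values under alternatives, 98 stayed within the counting interval of the reported value or, for gene counts, within 1.5 times. For list medians, which have no counting interval, the width came from the ratio of the list's summed UMIs, centred on the median. The cause of the other changes was not tested. The 98 include the gene counts under an added demand that the interval leave out 1, which the cuts themselves nearly ensured. Of the 5 genes higher in KO, 3 stayed past 2-fold when no gene minimum was set (Dstn, Lat and Xist), 2 on the scale of all UMIs (Dstn and Lat) and 2 from 200 UMIs (H2afx and Xist, with 4 genes lower).

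With a haemoglobin cut of 20%, members were 1.47% of cells in WT and 1.71% in KO, 14 genes were higher in KO (4 of them among the 5), the log2 medians were -0.21 (haem), -0.094 (membrane), -0.028 (late maturation) and -0.054 (mitosis), all 4 with a changed sign, and T cell markers were 0.249% and 0.289%. With a cut of 50%, members were 0.820% and 0.908%, T cell markers 0.350% in WT, and the cycling shares 12.1% and 8.80%. The medians were 0.42 (haem), 0.32 (membrane), 0.32 (S phase, changed sign) and 0.30 (redox, changed sign). At that cut 4 genes were higher in KO, 1 of the 5 (Dstn) among them with Alad, and 4 of the 7 lower genes were shared, Tmem14c not among them. With no mitochondrial limit, the 97 WT and 188 KO members were 0.668% and 1.04% of a larger total, and the interval of their difference left out 0. Per all UMIs, the medians were -0.19 (haem), -0.10 (membrane), -0.10 (late maturation), -0.027 (mitosis) and -0.13 (ribosomal), all 5 with a changed sign beside a median of -0.26 for all genes. As means of single-cell values, 14 genes were higher (2 of them among the 5), with medians of 0.26 (haem) and 0.49 (membrane). The medians of redox genes (0.17) and erythroid transcription factor genes (0.012) had a changed sign there. From 50 UMIs, 16 genes were higher and 22 lower. Cycling shares were 16.8% in WT and 19.6% in KO thinned to 500 UMIs, the opposite order to that at 1000, and 51.6% and 46.2% unthinned. Alternatives chosen after seeing the data left out the WT member richest in macrophage markers (8 genes higher) or members with 10 or more T cell marker UMIs (3 higher, 4 lower, membrane 0.35, T cell markers 0.225% and 0.265%). Leaving out the highest Scrublet scores, 5% of WT and 8% of KO cells, removed 0 WT and 5 KO members. That left 4 genes higher (3 of the 5, without Lat and Itgb7) and 6 lower (without Tmem14c), with a redox median of 0.036 (changed sign).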
